A study of Mus musculus with 4 samples.

Results

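Long stretches of the mouse X chromosome hold few genes, and 3 of them are described here: segment A from 60 to 70 Mb, segment B from 72.5 to 90 Mb and segment C from 110 to 130 Mb (mm9). A gene belonged to a segment when its start lay within it and its symbol did not begin with Magea, Mageb, Xlr, Rhox, Ssx or Slx, which left out 8 germline-family genes. The rule gave 101 of 952 X-linked genes, 33 in A, 46 in B and 22 in C, out of 22691 genes in all. The segments were chosen with paternal shares of these same libraries known, so the shares and counts of calls below are descriptions and are not offered as a test of the segments.

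The data were RNA-seq of fibroblasts from female mouse fetuses at E13.5, with 2 libraries per genotype. The MD1 fibroblasts were homozygous for the MD1 allele of Smchd1 (Smchd1 MD1/MD1; Xist deltaA/+). The WT fibroblasts had normal Smchd1 (Smchd1 +/+; Xist deltaA/+). In both groups the mother was C57BL6/J and carried Xist deltaA, and the father was an F1 of JF1 and C57BL6/J. No label says whether replicates were separate fetuses or whether fetuses were pooled, so the spread given here may be technical.

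In female mammals 1 X chromosome is coated by Xist RNA and silenced. A chromosome with the deltaA deletion of Xist cannot be silenced, so the paternal X, which carries JF1 variants, is the silenced one in these cultures. The SmcHD1 protein, which acts on chromatin and shares a hinge domain with the SMC proteins, binds the inactive X and is needed to keep many of its genes silent. Reads with a JF1 variant therefore report on the inactive X, and the paternal share is the JF1 percentage of a gene's allele-specific reads.

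Smchd1 had 1.94 FPKM in MD1 and 14.7 FPKM in WT as the authors' group means. Xist reads were 99.87% and 99.90% paternal in the MD1 libraries and 99.84% and 99.86% in the WT libraries. The libraries held 704635 and 806626 allele-specific X reads in MD1 and 544330 and 521768 in WT. The segments took 3.73% to 4.75% of them. All 10 fibroblast markers were listed above 0 in both groups, led by Vim at 2802 FPKM in MD1 and 2790 FPKM in WT. Of the 10, 4 were lower and 6 higher in MD1. Among the lower was Col1a1, at 1081 FPKM in MD1 and 1688 in WT. Among the higher was Fn1, at 940 and 370.

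The segments were sparse in this table as their name says. With the germline families counted, they held 2.29 genes per Mb, against 7.29 per Mb in the rest of X and 29.2 per Mb in the 2.5 Mb between A and B that contain Flna and G6pdx. Segment C was the emptiest, at 1.1 genes per Mb. Of the 101 genes, 47 were listed at 0 FPKM in both groups. There were 55 with no allele-specific read in any library, which can also happen where a gene has no JF1 variant. Genes with a share in each of the 4 libraries and an average of at least 20 reads per library are called informative. There were 32 such genes, 14 in A, 14 in B and 4 in C, and 14 further genes had reads but did not meet both conditions.

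In MD1 the inactive X gave RNA from 5 of the 32 informative genes at a mean paternal share of 10% or more. These were Vma21 at 36.5% ± 2.95, Chm at 30.6% ± 1.30, Vbp1 at 29.1% ± 0.185, Tab3 at 23.1% ± 0.763 and Fmr1 at 13.4% ± 0.0205 (SD, n = 2). In WT the same 5 genes had 0.0653% ± 0.0923, 0.602% ± 0.251, 1.5% ± 0.0790, 0.345% ± 0.488 and 0.216% ± 0.167 (SD, n = 2). Another 14 genes had a mean MD1 share from 1% to under 10%, 7 were above 0 but under 1%, and 6 had no paternal read in either MD1 library. In the segments 15.6% of informative genes thus reached 10% in MD1, against 54.5% of all 391 informative X genes.

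**Figure D1:**
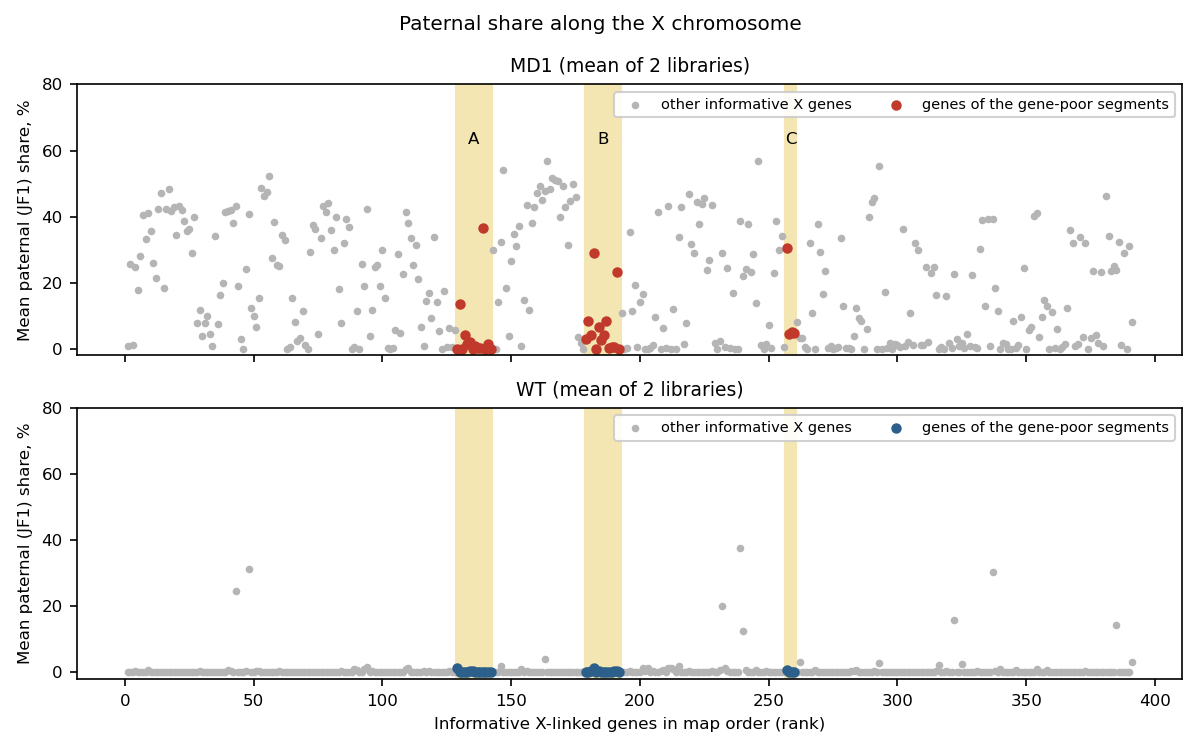
Mean paternal share of each informative X-linked gene (y axis, percent of allele-specific reads, mean of 2 libraries) by rank in map order (x axis), in MD1 above and WT below. Shaded bands are segments A, B and C, whose 32 genes are coloured. In MD1 5 coloured points stand at 13.4% to 36.5% and the other 27 lie under 10%, while in WT no coloured point exceeds 1.5%.

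Taken over the 32 genes, the paternal share was low in MD1 and lower still in WT. The median gene had 2.47% in MD1 and 0.0802% in WT. When reads were pooled, 2167 of 26213 and 2888 of 35150 reads were paternal in the MD1 libraries, against 42 of 24123 and 41 of 24642 in the WT libraries. This is 8.27% (Wilson 95% interval 7.94 to 8.61) and 8.22% (7.93 to 8.51) in MD1, and 0.174% (0.129 to 0.235) and 0.166% (0.123 to 0.226) in WT, where intervals cover counting error only. The groups did not overlap. The 5 genes at 10% or more supplied 3829 of the 5055 paternal reads in MD1 (75.7%) and 37 of the 83 in WT. By segment the median MD1 share was 0.619% in A, 3.42% in B and 4.81% in C, the last over 4 genes. In A it was 0.857% in MD1 replicate 1 and 0.194% in replicate 2. Pooled over reads the order of A and B was the other way, with 10.2% and 8.87% in A, 5.04% and 5.64% in B and 17.1% and 18.7% in C in the MD1 libraries.

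In 19 of the 32 genes each MD1 library was above each WT library, which held for 77.5% of all informative X genes. The edgeR quasi-likelihood test, fitted over the 391 genes and adjusted by Benjamini-Hochberg at an FDR of 0.05, called 18 of the 32 genes higher in MD1 and 0 lower, against 74.4% and 0.256% of the 391. By segment it called 5 of 14 genes in A, 10 of 14 in B and 3 of 4 in C. Because the segments were chosen on this contrast, these counts describe them and support nothing further. Among the 7 genes with a mean under 100 reads 2 were called, against 22 of 63 over all informative X genes at that depth. For the others of the 7 a change may have gone unseen. With a mean of 100 or more reads 16 of 25 genes were called, against 269 of 328 over all informative X genes.

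**Figure D2:**
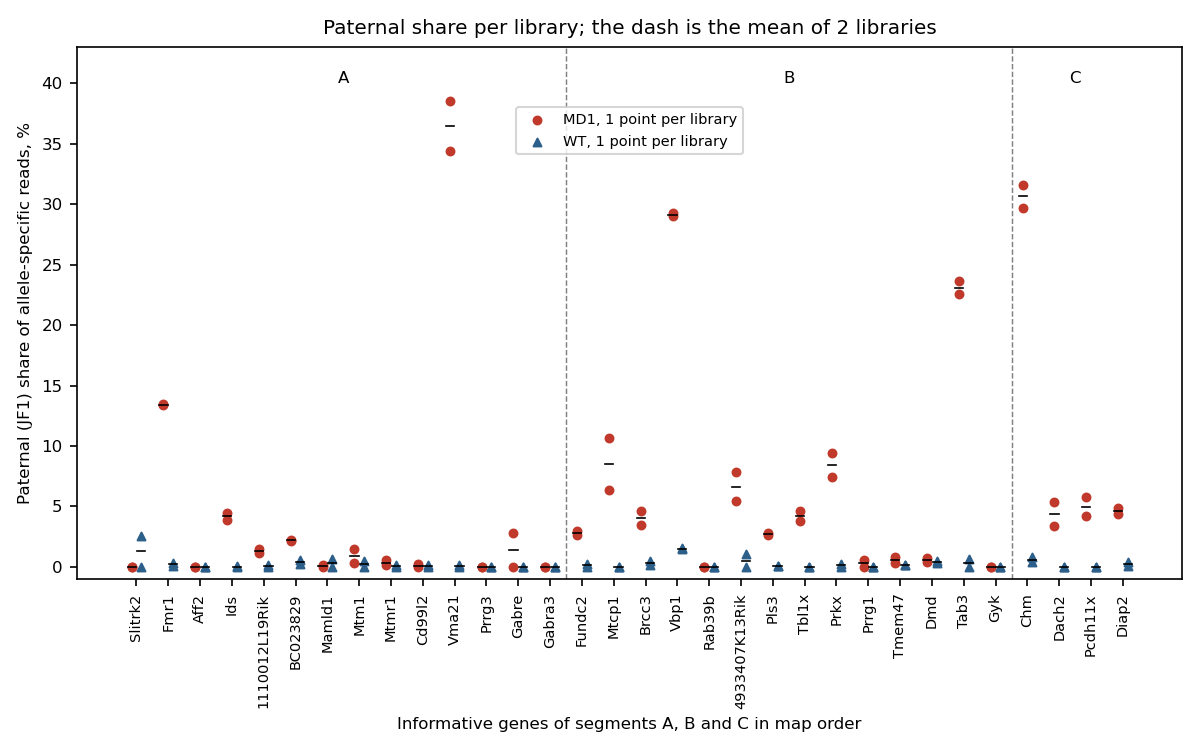
Paternal share (y axis, percent) of the 32 informative genes in map order (x axis), with 1 point per library, MD1 as circles to the left of WT as triangles, and a dash at the mean of 2 libraries. Dashed lines separate segments A, B and C. The MD1 circles of Vma21, Vbp1, Tab3, Chm and Fmr1 stand clear of all others, and those of Prrg3, Aff2, Rab39b and Gyk lie at 0.

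Vma21 (X, 69061419 to 69070045), an assembly factor of the vacuolar proton pump, had the highest paternal share in the segments. It was 38.6% of 1496 reads and 34.4% of 1747 reads in the MD1 libraries, against 0.131% of 766 and 0% of 658 reads in the WT libraries. Both MD1 libraries were far above both WT libraries. The nearest informative genes on either side had low or no paternal reads, while Gm1141, between Vma21 and Prrg3, had 6 of 13 in MD1 replicate 2 and too few reads to be informative. Cd99l2 (68673235 to 68746024), which encodes a membrane protein of cell adhesion, lies 315.4 kb before Vma21 and had 0% of 1164 and 0.215% of 1396 reads in MD1, against 0% of 1995 and 0.116% of 1722 reads in WT. Prrg3 (69207964 to 69218061), a transmembrane protein gene with a vitamin K-dependent domain, starts 137.9 kb after it. Prrg3 had no paternal read among 130 and 223 reads in the MD1 libraries, which together allows a share of up to 0.850%, nor among 18 and 72 reads in the WT libraries, which allow up to 3.33%.

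Vbp1 (X, 72759636 to 72780285), a subunit of the chaperone prefoldin, had 29.2% of 653 and 29.0% of 1166 reads in the MD1 libraries. Its WT libraries had 1.55% of 451 and 1.44% of 486 reads, the highest mean share in WT among the 32 genes. The MD1 libraries were close to each other and well above WT. Only 37.1 kb further on, Rab39b (72817384 to 72823570), a small GTPase of vesicle traffic, had no paternal read. It had 0 of 219 reads in MD1, which allows up to 1.37%, and 0 of 142 in WT, which allows up to 2.11%. Brcc3 (72661967 to 72701040), a deubiquitinase gene 58.6 kb before Vbp1, had 3.47% of 519 and 4.60% of 1021 reads in MD1, against 0.462% of 433 and 0.165% of 605 reads in WT.

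Tab3 (X, 82819361 to 82879808), an adaptor of the kinase TAK1, had 23.6% of 859 and 22.6% of 1441 reads in the MD1 libraries. The WT libraries had 0% of 499 and 0.691% of 724 reads, so the groups were again apart. Gyk (82947276 to 83022158), which encodes glycerol kinase and is called Gk in RefSeq, lies 67.5 kb beyond the end of Tab3. Gyk is on the - strand, so its own transcription start is at its far end, 83022158. It had the firmest absence of paternal reads in the segments: 0 of 1547 reads in MD1, which allows up to 0.194%, and 0 of 973 in WT, which allows up to 0.308%. Before Tab3 lies Dmd, the dystrophin gene, at 0.369% of 271 and 0.763% of 262 reads in MD1 and 0.475% of 421 and 0.285% of 351 reads in WT.

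Chm (X, 110154201 to 110299124), which encodes Rab escort protein 1, had 29.7% of 1605 and 31.6% of 2171 reads in the MD1 libraries, against 0.424% of 1178 and 0.780% of 1026 reads in the WT libraries. Dach2 (110411119 to 110949995), a transcription cofactor gene 112.0 kb further on, had 3.39% of 59 and 5.41% of 37 reads in MD1 and no paternal read among 109 in WT, which allows up to 2.75%. Both of its MD1 libraries were above WT, on few reads. Fmr1 (65931716 to 65971136), the gene of the RNA-binding protein FMRP, had 13.4% of 1357 and 13.4% of 1860 reads in MD1, against 0.0985% of 1015 and 0.334% of 898 reads in WT. Its nearest informative neighbours lie 2017 kb before it (Slitrk2) and 642.4 kb after it (Aff2), and both had 0% in MD1.

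**Figure D3:**
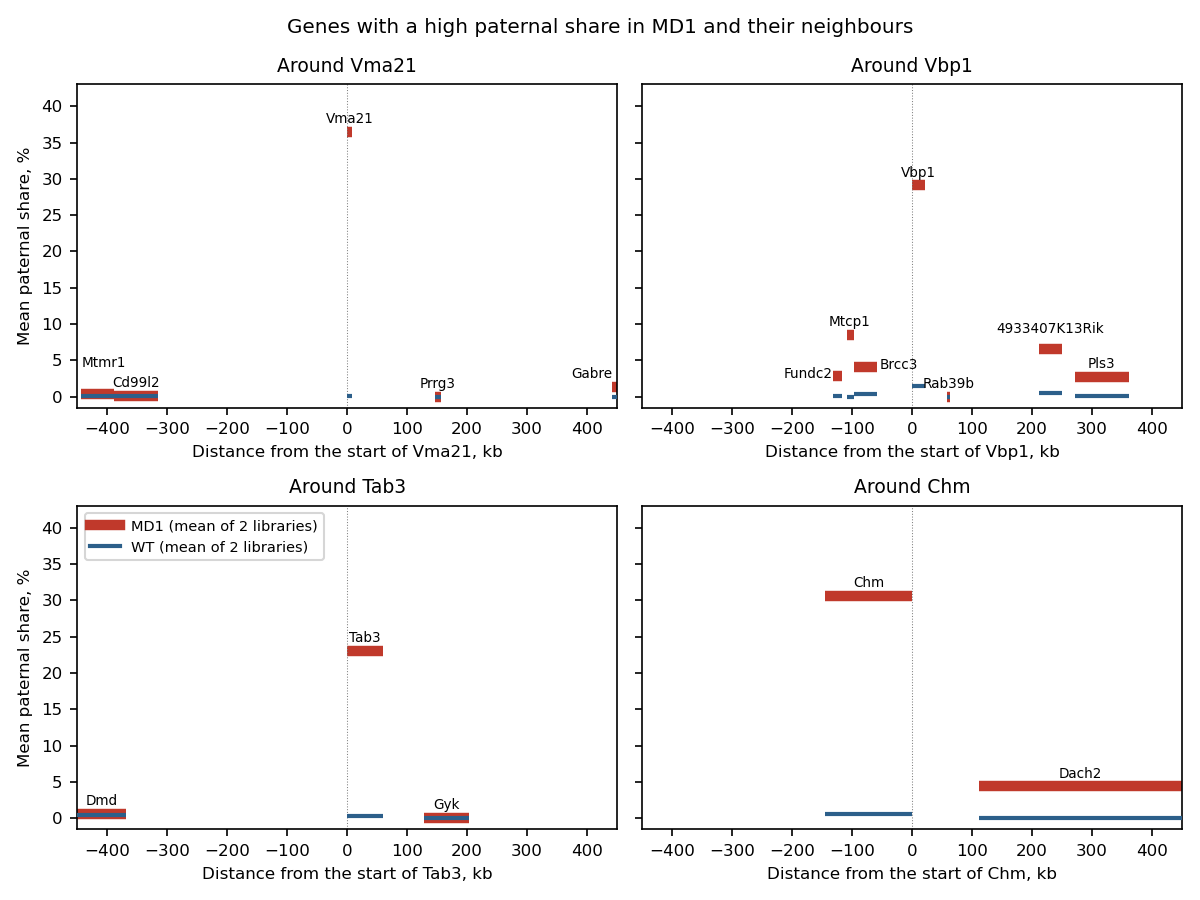
Mean paternal share (y axis, percent, mean of 2 libraries) of informative genes drawn as bars over their gene bodies, by distance in kb along the map from the transcription start of Vma21, Vbp1, Tab3 or Chm (x axis; Chm runs leftward), with MD1 as thick bars and WT as thin bars. Only genes of the same segment are drawn, so informative genes beyond its bounds are left out. In each panel 1 gene stands at 23.1% to 36.5% in MD1 and the neighbours drawn lie at 0% to 8.51%.

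Promoters of these genes are shown because bodies of genes with high and absent paternal shares lie within about 140 kb of each other. All lie on the same X chromosome, and transcription starts can be further apart, as for Tab3 and Gyk. Each sequence is the 250 bases before a RefSeq transcription start in GRCm38.p6, written 5′ to 3′ on the gene's own strand. These positions belong to that build and were not converted to mm9. The capitals mark CG dinucleotides, the sites of DNA methylation in mammals. Vma21, Prrg3 and Dach2 each have more than 1 RefSeq start, and for Vma21 both are given because their CG counts differ.
Vma21, upstream start (chrX:71815830-71816079, + strand): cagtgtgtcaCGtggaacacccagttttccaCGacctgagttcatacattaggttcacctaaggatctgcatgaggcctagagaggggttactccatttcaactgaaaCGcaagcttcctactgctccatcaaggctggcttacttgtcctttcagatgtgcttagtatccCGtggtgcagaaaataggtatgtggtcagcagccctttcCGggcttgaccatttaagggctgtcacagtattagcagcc
Vma21, downstream start (chrX:71816508-71816757, + strand): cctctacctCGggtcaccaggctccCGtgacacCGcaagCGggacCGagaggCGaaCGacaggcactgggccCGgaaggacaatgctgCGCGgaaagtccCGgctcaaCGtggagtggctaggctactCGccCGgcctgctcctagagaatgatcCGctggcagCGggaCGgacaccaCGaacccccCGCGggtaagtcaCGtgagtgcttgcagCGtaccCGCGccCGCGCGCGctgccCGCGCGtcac
Prrg3, upstream start (chrX:71962375-71962624, + strand): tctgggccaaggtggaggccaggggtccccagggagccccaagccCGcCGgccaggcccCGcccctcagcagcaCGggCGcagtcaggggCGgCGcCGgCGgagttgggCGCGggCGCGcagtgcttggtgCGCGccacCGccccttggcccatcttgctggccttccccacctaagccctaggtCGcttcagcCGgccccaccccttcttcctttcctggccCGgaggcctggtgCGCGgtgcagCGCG
Vbp1 (chrX:75514047-75514296, + strand): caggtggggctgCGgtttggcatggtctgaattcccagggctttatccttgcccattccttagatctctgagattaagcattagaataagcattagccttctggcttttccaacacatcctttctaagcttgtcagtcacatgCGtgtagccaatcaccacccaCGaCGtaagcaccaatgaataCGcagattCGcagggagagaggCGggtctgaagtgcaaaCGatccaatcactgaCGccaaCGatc
Rab39b (chrX:75578232-75578481, - strand): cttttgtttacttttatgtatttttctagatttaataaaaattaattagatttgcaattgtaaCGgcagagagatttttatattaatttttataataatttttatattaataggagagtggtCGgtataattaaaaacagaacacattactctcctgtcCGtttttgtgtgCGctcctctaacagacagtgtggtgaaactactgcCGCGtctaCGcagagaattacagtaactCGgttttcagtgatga
Tab3 (chrX:85573772-85574021, + strand): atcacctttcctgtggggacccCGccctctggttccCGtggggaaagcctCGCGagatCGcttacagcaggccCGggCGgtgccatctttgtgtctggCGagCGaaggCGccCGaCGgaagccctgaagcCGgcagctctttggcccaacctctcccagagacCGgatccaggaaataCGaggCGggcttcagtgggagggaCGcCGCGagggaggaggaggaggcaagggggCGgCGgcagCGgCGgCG
Gyk (chrX:85776820-85777069, - strand): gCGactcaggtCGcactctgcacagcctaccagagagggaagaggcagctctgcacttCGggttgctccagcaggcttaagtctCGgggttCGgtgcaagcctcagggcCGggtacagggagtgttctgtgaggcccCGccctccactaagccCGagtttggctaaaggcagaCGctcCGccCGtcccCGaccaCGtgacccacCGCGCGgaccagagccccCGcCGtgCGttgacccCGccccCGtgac
Chm (chrX:113185516-113185765, - strand): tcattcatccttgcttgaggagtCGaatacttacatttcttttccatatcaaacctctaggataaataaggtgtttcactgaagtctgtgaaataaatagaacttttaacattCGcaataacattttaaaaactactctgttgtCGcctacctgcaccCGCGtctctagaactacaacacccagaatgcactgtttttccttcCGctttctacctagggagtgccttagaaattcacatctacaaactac
Dach2, upstream start (chrX:113297260-113297509, + strand): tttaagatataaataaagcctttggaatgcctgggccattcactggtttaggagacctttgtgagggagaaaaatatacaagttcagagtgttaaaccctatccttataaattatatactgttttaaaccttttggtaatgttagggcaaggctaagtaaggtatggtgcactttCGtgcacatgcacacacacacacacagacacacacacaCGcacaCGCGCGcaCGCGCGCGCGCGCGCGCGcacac

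The printed stretches held 5 CG in the upstream and 31 CG in the downstream Vma21 window, 10 in Vbp1, 24 in Tab3 and 6 in Chm, the genes with high MD1 shares. They held 23 CG in Prrg3, 8 in Rab39b and 21 in Gyk, which had no paternal read in MD1, and 14 in Dach2, the lowest of segment C. Of the genes tied at 0% in a segment, Prrg3 and Gyk are shown for their read numbers and Rab39b as the neighbour of Vbp1. Counts above 20 were found on both sides, at the downstream Vma21 start and in Tab3, and in Prrg3 and Gyk. In the wider windows of 300 bases the other genes tied at 0% had 8 CG in Slitrk2, 16 in Aff2 and 0 in Gabra3 at their most upstream starts. These windows take in 50 bases after the start, and 29 of the 32 genes had a sequence, with a median of 15 CG, against 17 for the other 307 informative X genes with a sequence and 7 over all 27025 RefSeq genes. With the most upstream start, the 5 genes at 10% or more in MD1 had a median of 12 CG, the 11 genes from 1% to under 10% had 16 and the 13 genes under 1% had 10. With the start that has the most CG, an alternative chosen after seeing the data, the medians were 26, 16 and 17, so the order of the groups depended on which start was taken. Across the 29 genes, which share the same 4 libraries, CG count and mean MD1 share were also compared. With the most upstream start they had a Spearman rho of 0.090 and a Pearson r of -0.081. With the start that has the most CG these were 0.134 and 0.200. Over 336 informative X genes they were 0.209 and 0.138 with the most upstream start.

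The GC box GGGCGG, searched on both strands, was found in 17 of the 29 windows (58.6%), in 62.2% of those of the other informative X genes and in 35.9% of all RefSeq windows. It was in 2 of the 5 genes at 10% or more, Tab3 and Fmr1. The 56 genes of the segments that were not informative and had a sequence held a median of 3 CG, and 14.3% had a GC box. RefSeq matched 99 of the 101 symbols, 17 of them through an older name, and annotates 88 as protein coding and 7 as lncRNA.

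The remaining informative genes of segment A had mean paternal shares of at most 4.18% in MD1. Ids (X, 67596245 to 67618260), the lysosomal iduronate sulfatase gene, was the best read of them, with 4.45% of 2587 and 3.92% of 3242 reads in MD1 and 0.0606% of 3298 and 0% of 2778 reads in WT. Its neighbours 1110012L19Rik, called Eola1 in RefSeq, and BC023829 had means of 1.33% ± 0.240 and 2.21% ± 0.0389 in MD1, against 0.0627% ± 0.0887 and 0.421% ± 0.236 in WT (SD, n = 2). In each of these 3 genes the MD1 libraries were the higher ones, by a few points.

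A run of 4 genes after them lay under 1% in mean share in MD1. The phosphoinositide phosphatase genes Mtm1 (68463942 to 68568470) and Mtmr1 (68617935 to 68672371) had 0.890% ± 0.776 and 0.349% ± 0.292 in MD1, against 0.227% ± 0.321 and 0.0808% ± 0.114 in WT (SD, n = 2). Mamld1, a transcriptional coactivator gene, had 0.0868% ± 0.123 in MD1 and 0.326% ± 0.461 in WT (SD, n = 2). Their libraries overlapped between the groups, as did those of Cd99l2.

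Aff2, a nuclear protein gene that spans 507.7 kb, had 0 of 245 reads in MD1, which allows up to 1.22%, and 0 of 246 in WT, which allows up to 1.22%. The GABA receptor subunit gene Gabra3 had 0 of 36 reads in MD1 and 0 of 50 in WT, which allow 8.33% and 6.0%. Its relative Gabre had 2.78% of 36 and 0% of 45 reads in MD1 and 0 of 89 in WT. Slitrk2, a synaptic adhesion gene, had 0 of 36 reads in MD1, and its WT mean of 1.28% ± 1.81 (SD, n = 2) rests on 1 paternal read. At the read numbers of Gabra3, Gabre and Slitrk2 a share of a few percent was not detectable.

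Segment B opened with genes at low but nonzero shares in MD1. Fundc2, a mitochondrial outer membrane protein gene, had 2.99% of 1002 and 2.63% of 1405 reads in MD1, against 0% of 819 and 0.228% of 879 reads in WT. Mtcp1, named from a human T cell leukaemia, is on the - strand, with its start 0.043 kb before that of Brcc3 on the + strand. Mtcp1 had 6.35% of 63 and 10.7% of 75 reads in MD1 and 0 of 77 in WT, which allows up to 3.90%. Both MD1 libraries of these genes lay above WT.

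The noncoding gene 4933407K13Rik (X, 72970797 to 73010038) is listed in RefSeq with the synonym Dxz4, the name of a tandem repeat where the inactive X folds into large domains. It had 7.81% of 128 and 5.44% of 147 reads in MD1, against 1.04% of 96 and 0% of 124 reads in WT. Both MD1 libraries were above both WT libraries. Pls3 (73030993 to 73120509), the gene of the actin-bundling plastin 3, lies 21.0 kb further on, on the - strand, and was the most read gene of the segments. It had 2.82% of 6377 and 2.64% of 7798 reads in MD1, against 0.0700% of 5714 and 0.0891% of 5609 reads in WT.

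Tbl1x, a corepressor subunit gene, had 3.75% of 666 and 4.62% of 995 reads in MD1 and 0 of 1401 in WT, which allows up to 0.214%. The kinase gene Prkx had 9.38% of 501 and 7.45% of 913 reads in MD1, against 0.227% of 440 and 0% of 687 reads in WT. In both genes the MD1 libraries were above those of WT. Further on the shares dropped under 1% for 3 genes that are spread over several Mb. Prrg1, a relative of Prrg3, had 0.291% ± 0.411 in MD1 and 0 of 222 WT reads, which allows up to 1.35%. Tmem47, a junctional membrane protein gene, had 0.595% ± 0.350 in MD1 and 0.168% ± 0.00746 in WT (SD, n = 2), and Dmd followed with the values above. Of the 13 genes under 1% in MD1, Tmem47 alone was called by edgeR.

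Segment C had 4 informative genes in 20 Mb. After Chm and Dach2 came Pcdh11x (X, 117403936 to 118024227), a protocadherin gene, 6454 kb beyond Dach2, and Diap2 (126284278 to 127000369), a formin gene called Diaph2 in RefSeq, 8260 kb beyond Pcdh11x. Pcdh11x had 4.17% of 48 and 5.77% of 52 reads in MD1 and 0 of 134 in WT, which allows up to 2.24%. Diap2 had 4.90% of 1552 and 4.40% of 1863 reads in MD1, against 0.381% of 1573 and 0.0782% of 1278 reads in WT. Dach2, Pcdh11x and Diap2 thus had means of 4.40%, 4.97% and 4.65% in MD1. Those of Dach2 and Pcdh11x rest on 4 of 96 and 5 of 100 reads, too few to say how close the shares are. Of the genes of segment C, Dach2 was the one that edgeR did not call.

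The nearest informative genes inside and outside each segment bound are set beside it. Some of them lay far from the bound by their listed starts: Gyk 7053 kb, Slitrk2 3902 kb, Diap2 3716 kb and Rps6ka6 1499 kb. At the lower bound of A the first informative gene inside was Slitrk2, with 0% of 36 reads in MD1 and a mean of 1.28% over 61 reads in WT. At the upper bound of A, Gabra3 inside had 0% in both groups, on 36 reads in MD1 and 50 in WT. Nsdhl outside had 29.98% in MD1 and 0.188% in WT, on 1816 and 1554 reads. At the lower bound of B, Fundc2 inside had 2.81% in MD1 and 0.114% in WT, and F8 outside had 0% in both, on 106 reads in MD1 and 180 in WT. At its upper bound Gyk inside had 0% in both and Pola1 outside had 10.8% in MD1 and 0% in WT. Chm, the first gene inside C, had 30.6% in MD1 and 0.602% in WT, against 0.465% and 0.463% for Rps6ka6 outside, and at the far end Diap2 inside had 4.65% and 0.230%, against 8.07% and 0.0968% for Pcdh19 outside. Moving each bound inward by 1 Mb removed Chm, Vma21, Vbp1 and other genes near the edges and left 19 genes, 2 of them at 10% or more in MD1, with a median MD1 share of 0.890%.

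The segments as wholes are set beside other parts of X without a test. The median MD1 share was 2.47% in the segments, 38.99% over the 36 informative genes between A and B, 3.12% over 57 genes from 130 to 140 Mb and 15.5% over the 359 informative genes of the rest of X. In WT these medians were 0.0802%, 0%, 0.0412% and 0.0435%. The informative genes of the segments spanned a median of 46.9 kb and those of the rest of X 27.1 kb, and the widest was Dmd at 2256 kb. Within their spans Dmd and Pcdh11x hold Tsga8 and H2afb3, which had 0 allele-specific reads. Their median read number was 583.5 per library and that of the rest of X 521.8. Across the 32 genes span and mean MD1 share had a Spearman rho of -0.025 and a Pearson r of -0.144, as a description over genes that share the libraries.

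Total RNA was deposited as 1 mean FPKM per group and has no spread, so ratios are described without a test. The 5 genes at 10% or more in MD1 all had higher FPKM in MD1. Vbp1 had 62.9 FPKM in MD1 and 37.6 in WT, Fmr1 47.7 and 32.2, Chm 16.4 and 11.9, Vma21 16.1 and 11.5, and Tab3 5.43 and 3.62. Their ratios as log2 of (FPKM + 1) ran from 0.43 to 0.73, a scale that understates the change of low genes. Of the 14 genes from 1% to under 10%, 6 had higher and 8 lower FPKM in MD1, with a median of -0.04. Of the 13 genes under 1%, 6 were higher and 7 lower, with a median of -0.05.

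When FPKM was split by the mean paternal share, the paternal part in MD1 was 18.3 FPKM for Vbp1, 6.41 for Fmr1, 5.87 for Vma21, 5.02 for Chm and 1.25 for Tab3. The maternal part was 10.2 FPKM in MD1 and 11.5 in WT for Vma21, 11.4 and 11.8 for Chm, and 4.18 and 3.60 for Tab3. For Vbp1 it was 44.6 FPKM in MD1 and 37.1 in WT, and for Fmr1 41.3 and 32.1. The maternal part was thus lower in MD1 for Vma21 and Chm and higher for the other 3, by at most 1.28-fold. Pls3, with 189.2 FPKM in MD1 and 214.9 in WT, had a paternal part of 5.17 FPKM in MD1, near that of Vma21 and Chm although its share was 2.73%.

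**Figure D4:**
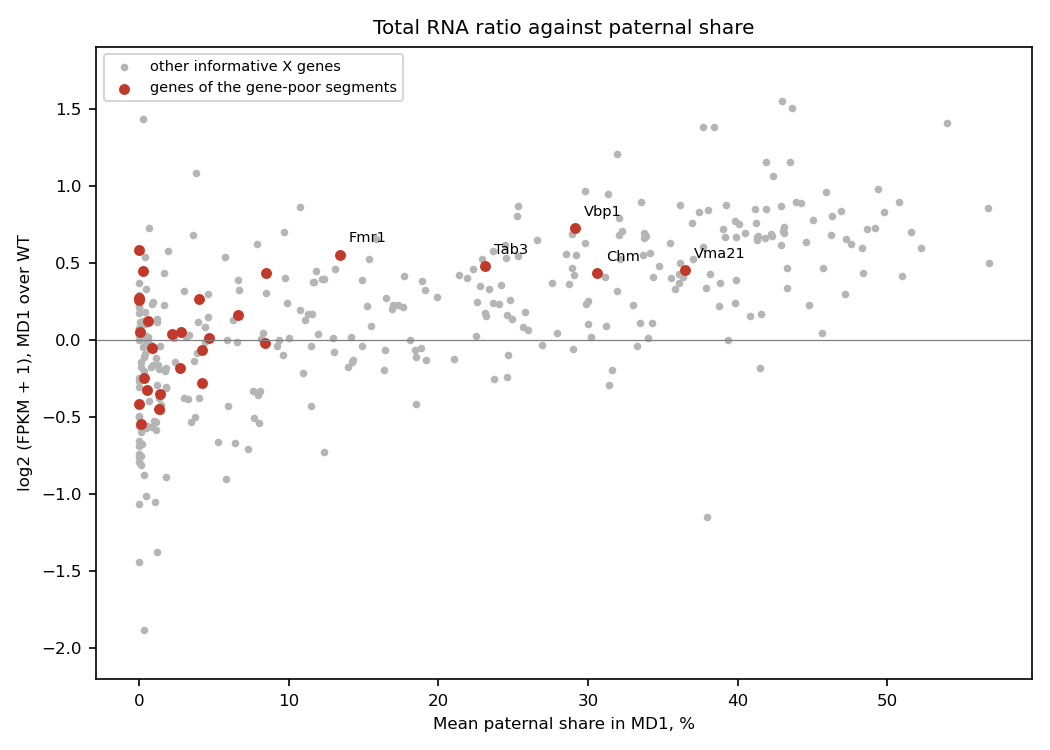
MD1 to WT ratio of total RNA on the log2 (FPKM + 1) scale (y axis) against the mean paternal share in MD1 (x axis, percent) for 357 informative X genes that reach a mean FPKM of 1, 28 of them in the segments (red). The 5 named genes lie between 0.43 and 0.73 on the y axis, and the red points under 10% scatter on both sides of 0. A single gene outside the segments falls beyond the y range.

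Over the 29 genes of the segments that passed an FPKM minimum of 1, the median log2 ratio was 0.052, against 0.23 over 369 genes in the rest of X and 0.0012 over 11001 autosomal genes. A ratio of at least 1.5-fold on this scale was reached upward by 3 of the 29, Hmgb3, Vbp1 and Prrg3, and downward by 0. That is 10.3% upward, against 25.7% in the rest of X and 6.05% over all genes. Downward the rest of X gave 7.05% and all genes 7.65%. Prrg3 had 1.45 FPKM in MD1 and 0.632 in WT with no paternal read, so its higher RNA came with maternal reads alone among those seen. Across the 28 informative genes that passed, the ratio and the mean MD1 share had a Spearman rho of 0.368 and Pearson r of 0.574. Over all 357 informative X genes that passed, these were 0.663 and 0.578. Both pairs are descriptions over genes that share the libraries.

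Markers of other cell types are set beside some of these totals. Dmd, which muscle uses, had 1.81 FPKM in MD1 and 2.52 in WT. All 6 skeletal muscle markers were lower in MD1, with a summed 36.3 FPKM in MD1 and 124.5 in WT. Their part in the Dmd value was not tested, and in bulk RNA fewer cells of a type and less RNA per cell cannot be told apart. Of 7 neural markers 3 were higher and 4 lower in MD1, with sums of 125.0 FPKM in MD1 and 116.3 in WT, and Dcx and Elavl3 were at most 0.192 FPKM in either group. Beside them Aff2 had 2.30 FPKM in MD1 and 3.40 in WT, Slitrk2 0.124 and 0.328, Gabra3 0.177 and 0.216, and Pcdh11x 0.352 and 0.505, and the part of neural cells in these was not tested.

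Of the 14 genes with reads that were not informative, Hmgb3, a chromatin protein gene, had the most RNA. It had 7.46 FPKM in MD1 and 3.79 in WT, with 0 of 39 and 0 of 48 paternal reads in the MD1 libraries, which over both allows a share of up to 3.45%. Slitrk4, a relative of Slitrk2, had 4 and 8 allele-specific reads in the MD1 libraries, against 23 and 92 in WT, where none of 115 was paternal. Its FPKM was 0.0661 in MD1 and 0.572 in WT. The gene 3830417A13Rik had 3 and 0 reads in MD1 and 25 and 13 in WT, with 0.0232 FPKM in MD1 and 0.308 in WT. Fmr1nb, Gpr50, 5430427O19Rik and 3110007F17Rik had a share in at least 1 MD1 library, of 10 to 13 reads, and it was 0% in each.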

How the data were processed

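Total RNA was enriched for polyadenylated RNA and sequenced with a stranded kit, per the labels' protocols. For every X-linked gene, the authors deposited allele-specific reads of each library as raw counts, and the JF1 share as a fraction, given from 10 reads. The authors also deposited total expression as FPKM, 1 mean per group. The submitters' processing notes name mm9, Cufflinks 2.2.1 and Cuffdiff. Not given in the sources used here are the aligner, the JF1 variants and the counting by strand. A preference of mapping for B6 sequence would lower JF1 shares in both groups.

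Share times reads was whole within 0.001 for 100% of values, which gave JF1 counts. Printed starts are the file's start plus 1. A 0 share allows 3 counts of the total, which is an approximate 95% upper limit and not a maximum. It covers counting error only, also where reads of both libraries of a group were summed. edgeR 4.0.16 (R 4.3.3) tested the allele-by-genotype term with a term per library and an allele term, library sizes being the allele-specific totals. It was two-sided, ran over 391 genes and was tested on simulated data. Those data had a higher WT share and larger rises than most genes of the segments, so smaller changes were not covered by them. DESeq2 1.42.0 was an alternative. With 1 FPKM mean per group no test of total RNA was possible. Replicate reads differed beyond sampling noise, with a chi-square per degree of freedom of 79.2 in MD1 and 88.0 in WT.

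The segments, their genes and the lists were chosen with earlier results of these data known. Named genes were the informative genes of the segments, others with a share or an FPKM of 1 or more, the nearest informative genes outside each bound (1 of them is not reported here), Smchd1 and Xist. Promoter sequences and current symbols are from RefSeq (GRCm38.p6). Summed FPKM in MD1 and WT was 5568 and 6056 for fibroblast markers, 12.8 and 13.1 for blood, 4.87 and 7.50 for endothelial, 24.8 and 19.95 for epithelial and 0.221 and 0.912 for germline markers.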

Additional observations from a re-analysis of the deposited data

Results flagged for a closer look

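Gm1141, a gene of segment A with too few reads to be informative, had a paternal share of 46.2% in MD1 replicate 2. This was 6 of 13 reads (Wilson 95% interval 23.2 to 70.9), while MD1 replicate 1 had 5 reads and no share was given. In WT the 11 reads of replicate 2 held no paternal read, which allows up to 27.3%. It lies between Vma21 and Prrg3. The interval reaches below the WT limit, the share rests on a single library, and the difference was not tested.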

How the results depend on the processing

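With segment bounds moved inward by 1 Mb, edgeR called 10 genes against 18, 2 genes against 5 reached 10% in MD1, 10 genes against 19 had both MD1 libraries above WT, and the median MD1 share was 0.890% against 2.47%. The changed membership is this alternative's construction. The median log2 FPKM ratio was 0.052, and it was 0.062 with a pseudocount of 0.1, 0 without an FPKM filter, 0.047 at a mean FPKM of 5 or more and -0.0040 with the inner bounds. The pooled share was 8.27% and 8.22% in MD1 and 0.174% and 0.166% in WT. As an unweighted mean over genes it was 6.15% and 6.10% in MD1 and 0.297% and 0.148% in WT, and without Pls3 it was 10.02% and 9.81% in MD1 and 0.206% and 0.189% in WT. Leaving out each library in turn gave 13 to 16 calls, 19 to 22 genes with the groups apart, 5 to 6 genes at 10% or more in MD1, and medians of 2.41% to 2.80% in MD1 and 0% to 0.0653% in WT. The edgeR fit then takes the lone library of a group to vary like the other group. DESeq2 called 15 genes, other read minimums gave 16 or 17 calls, and other size factors gave 18. With the replicate number as a block edgeR called 16. Deviations of same-numbered libraries correlated at 0.186 over shares and at 0.393 over log2 reads, but the labels give no pairing and there are only 2 numbers, so the samples share only a number. Depth limits 7 genes with a mean under 100 reads.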
